A study of Mus musculus with 6 samples.

Results

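Arhgap28, Fnbp1, Gypc, Lrrc69, Ninl and Med13l are 6 mouse genes, of 21887 coding genes examined, that carried long stretches of acetylated chromatin in fetal lung mesothelium and little in fetal lung epithelium. They were picked by hand on those same lengths, so the difference between the cell types at the 6 genes is described here and not tested. Each gene was read with 50 kb on either side, together with its neighbouring genes, to ask whether the acetylated stretches lay at the named gene or nearer to another one. The series profiled H3K27ac, acetylation of histone H3 at lysine 27, by CUT&RUN, in which an antibody-guided nuclease releases the chromatin fragments that carry the mark. Mesothelium was sorted from E16.5 embryonic lungs as PDPN+EPCAM-CD45-CD31-DAPI- cells, with 25k cells named for replicate 1 and 100k for replicate 2. Epithelium was sorted from the same stage as PDPN+EPCAM+CD45-CD31-DAPI- cells, with 100k cells named for replicate 1 and 200k for replicate 2. Both groups came from matings of Myrf Fl/Fl mice, a floxed line; the labels name no Cre, and the series describes the cells as wildtype. Lungs were pooled before sorting, and the labels do not say whether the 2 libraries of a cell type came from separate pools, so any p-value measures only the spread between libraries.

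H3K27ac marks active enhancers and promoters, and long runs of it often lie over genes that a cell type uses strongly. An acetylated element inside a gene can act on that gene's promoter or, by looping, on the promoter of a gene nearby. Mesothelium is the thin cell sheet that lines the outer surface of the lung. Arhgap28 encodes a GTPase-activating protein, which switches off small GTPases that control the actin skeleton, and Fnbp1 (also called FBP17) encodes an F-BAR protein that binds curved membranes in endocytosis. Gypc encodes glycophorin C, a membrane protein best known from red cells, where it anchors the membrane skeleton through protein 4.1. Ninl encodes ninein-like protein of the centrosome, Med13l a subunit of the kinase module of the Mediator complex, and Lrrc69 a leucine-rich-repeat protein of which little is known.

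The promoter stretches that bear on the acetylation of Arhgap28 and Fnbp1 are shown here, because their annotated start sites differed in which libraries covered them with a peak. They run from 250 bases before to 50 bases after the start, are credited to RefSeq with GRCm38.p6 coordinates, and are printed 5′ to 3′ on the minus strand, on which both genes lie. Capitals mark the GC box, GGGCGG, and the MEIS-type sequence, TGACAG, on either strand.
Arhgap28 internal start (chr17:67950891-67951190): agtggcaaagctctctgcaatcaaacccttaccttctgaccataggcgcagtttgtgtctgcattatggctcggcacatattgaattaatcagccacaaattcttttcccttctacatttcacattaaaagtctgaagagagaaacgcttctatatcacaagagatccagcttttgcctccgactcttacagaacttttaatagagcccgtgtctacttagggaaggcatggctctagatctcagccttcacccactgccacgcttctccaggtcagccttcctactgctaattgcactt
Arhgap28 outermost start (chr17:68004059-68004358): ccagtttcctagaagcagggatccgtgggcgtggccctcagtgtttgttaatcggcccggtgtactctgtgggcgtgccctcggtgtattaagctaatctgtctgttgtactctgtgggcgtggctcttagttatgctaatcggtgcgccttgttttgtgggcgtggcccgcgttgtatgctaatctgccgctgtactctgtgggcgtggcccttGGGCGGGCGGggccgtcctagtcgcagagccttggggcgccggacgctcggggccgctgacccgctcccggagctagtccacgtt
Fnbp1 outermost listed start (chr2:31141959-31142258): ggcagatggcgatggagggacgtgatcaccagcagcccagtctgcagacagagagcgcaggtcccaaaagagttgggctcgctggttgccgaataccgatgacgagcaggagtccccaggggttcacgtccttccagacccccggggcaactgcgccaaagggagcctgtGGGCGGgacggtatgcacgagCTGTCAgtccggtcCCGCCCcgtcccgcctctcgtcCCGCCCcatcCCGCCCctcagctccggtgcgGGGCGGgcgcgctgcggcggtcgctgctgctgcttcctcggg

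The 4 libraries are lists of called broad peaks, so the quantity compared is acetylated length, the kb of a gene's window that lie under a peak. The lists held 39006 and 41524 usable peaks in mesothelium and 47869 and 46632 in epithelium, covering 35.7 and 39.8 Mb against 44.4 and 41.4 Mb. Read depth is unknown from peak lists, and a base without a peak is not shown to lack acetylation. In such bulk material, acetylation in fewer cells and less acetylation per cell cannot be told apart. The markers of the 2 sorted types followed the labels in part. Of 11 tested mesothelium markers, 6 had more acetylated length in mesothelium by limma, as had 1.41% of the 10486 genes tested in all. Of 10 tested lung epithelium markers, 7 had more in epithelium, as had 2.53% of all genes tested (an adjusted p under 0.05 after Benjamini-Hochberg). Of the other mesothelium markers, Msln, which encodes mesothelin, had 0.544 and 0.893 kb in mesothelium against 1.19 and 4.29 kb in epithelium and did not pass (limma adjusted p = 0.438). Krt19, a keratin gene, had 3.12 and 1.79 kb against 3.12 and 2.96 kb (limma adjusted p = 0.895), and Tbx18 had no peak in either mesothelium library. Markers of other cells also moved with the mesothelium libraries. The 12 mesenchyme markers summed to 31.8 and 48.5 kb in mesothelium against 11.6 and 7.93 kb in epithelium, with Col3a1 and Tbx5 longer in mesothelium among 10 tested. The 10 endothelium markers summed to 14.1 and 11.5 kb against 4.8 and 7.92 kb, with Tek and Kdr longer in mesothelium among 5 tested, while Cdh5, Sox17, Erg and Lyve1 had no peak in either mesothelium library. Without mesothelium replicate 2 the call of Tek was lost (limma adjusted p = 0.178), and that of Kdr was lost when any 1 library was left out (limma adjusted p between 0.127 and 0.258). The 10 blood markers summed to 4.91 and 5.43 kb against 2.49 and 2.14 kb, and Ptprc, Spi1, Tal1, Hbb-bt and Itgam had no peak in either mesothelium library. Of the smooth muscle, blood, nerve and heart markers, 5 could be tested and none passed in limma. Of these, 2 had an unadjusted p under 0.05, beside 859 genes in the mesothelium and 1003 in the epithelium direction of 10486 tested. Whether such cells contribute to the lengths at the 6 genes was not tested.

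Across the 6 windows, both mesothelium libraries exceeded both epithelium libraries, which the choice of genes fixed. The same held in 18.4% of all 21887 coding-gene windows. The median window of all genes held 1.72 and 2.27 kb in mesothelium against 2.04 and 1.94 kb in epithelium.

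Arhgap28 had the longest acetylation of the 6. Its window held 31.5 and 33.8 kb in the mesothelium libraries against 4.11 and 3.42 kb in the epithelium libraries. The groups lay far apart and the replicates close together, with means of 32.6 ± 1.63 kb in mesothelium against 3.77 ± 0.487 kb in epithelium (SD, n = 2 each). The gene itself spans 161 kb of the minus strand (chr17:67842706-68004197), and 28.6 and 32.3 kb of the mesothelium length lay inside it.

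Fnbp1 held 10.6 and 16.1 kb in mesothelium against 0.957 and 1.44 kb in epithelium. Mesothelium replicate 2 was the longer, and neither epithelium library had a peak inside the gene body (chr2:31026206-31145454), which carried 6.15 and 11.3 kb in mesothelium. Another 3.05 and 4.44 kb of the mesothelium length lay in the bodies of neighbouring genes, against 0.957 and 1.08 kb in epithelium.

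The replicates matched most closely at Gypc and Lrrc69. Gypc had 12.0 and 12.0 kb in mesothelium, against no peak in epithelium replicate 1 and 0.372 kb in replicate 2. Its body is the shortest of the 6 (chr18:32528320-32560034), and 7.41 and 5.53 kb of the mesothelium length lay inside it. A further 4.00 and 6.43 kb lay between genes, with Gypc as the nearest coding gene. Lrrc69 had 12.5 and 12.6 kb in mesothelium against 2.85 and 1.26 kb in epithelium. Its body (chr4:14623622-14808379) held 10.1 and 9.61 kb in mesothelium against 0.327 kb and none in epithelium.

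Ninl (chr2:150934519-151009411) differed least in proportion, with 14.3 and 17.3 kb in mesothelium against 3.33 and 4.44 kb in epithelium. Its body held 10.3 and 15.9 kb in mesothelium against 1.64 and 2.45 kb in epithelium. Med13l (chr5:118560330-118765438) had the most uneven replicates, with 8.67 and 18.7 kb in mesothelium against 0.857 kb and none in epithelium. The mesothelium mean was 13.7 ± 7.11 kb and the epithelium mean 0.428 ± 0.606 kb (SD, n = 2 each).

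The lengths depended on how strongly a peak had to be called. Keeping only peaks whose −log10 q was at least 2 left 15.2 and 27.3 kb in mesothelium at Arhgap28, against no peak and 1.12 kb in epithelium. The same limit left 1.81 and 7.89 kb against 0.509 and 0.556 kb at Fnbp1, and 2.12 and 12.9 kb against 0.53 kb and none at Med13l. At a −log10 q of at least 4, Fnbp1 and Med13l had no peak left in any library, and mesothelium replicate 1 had none at Arhgap28.

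**Figure D1:**
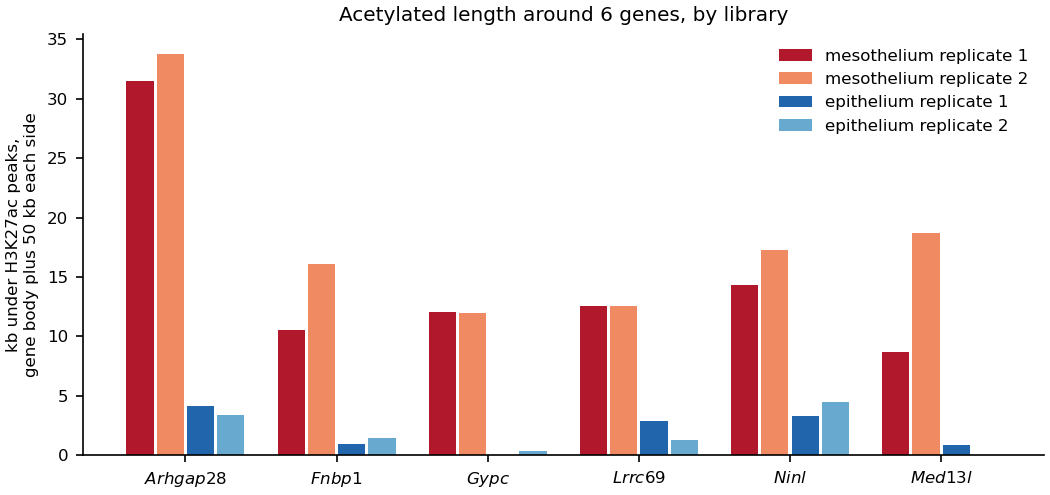
Acetylated length in kb (vertical axis) in the window of each gene, body plus 50 kb on each side, with 1 bar per library and mesothelium bars left of epithelium bars. The Arhgap28 bars reach 31.5 and 33.8 kb in mesothelium, and the Med13l bars show the widest gap between mesothelium replicates.

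Equal lengths did not mean the same bases. Within the Gypc window, 6.82 kb lay under a peak in both mesothelium libraries, a share of 0.397 of the bases covered in either. The share was 0.335 at Lrrc69, 0.31 at Arhgap28 and 0.196 at Ninl. It was 0.0776 at Fnbp1 and 0.0807 at Med13l, below the 0.132 found over all peaks of the genome. At Fnbp1 and Med13l, only 1.92 and 2.05 kb were covered in both mesothelium libraries. Their long totals were thus mostly made of peaks seen in 1 replicate each.

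**Figure D2:**
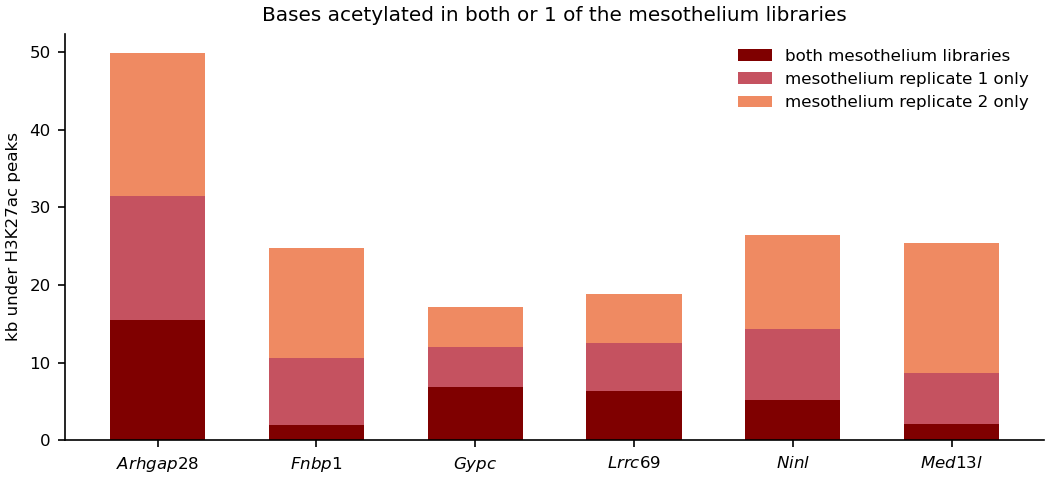
Acetylated kb in each gene's window (vertical axis), stacked as bases under a peak in both mesothelium libraries, in replicate 1 only and in replicate 2 only. The part seen in both is 15.4 kb at Arhgap28 but 1.92 kb at Fnbp1 and 2.05 kb at Med13l.

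When the peaks of the 4 lists were merged into regions, 29 regions in the 6 windows had a peak in both mesothelium libraries. Of these, 24 had no epithelium peak and 5 had a peak in 1 epithelium library, and no region was shared by all 4 libraries. The 24 mesothelium-only regions comprised 9 at Arhgap28, 4 at Fnbp1, 4 at Lrrc69, 3 at Med13l, 2 at Gypc and 2 at Ninl. At least 1 such region was found in 21.9% of all coding-gene windows, and longer windows can hold more of them. Of the 24, 20 (83.3%) touched the body of the named gene, which makes up 56.4% of the bases in these windows. A further 2 lay in another coding gene, Gpr107, and 2 lay outside coding genes. Over all 3444 mesothelium-only regions, 78.4% touched a coding gene of any name, as did all but 2 of the 24.

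At Arhgap28 all 11 regions found in both mesothelium libraries touched the gene. The widest was 8.05 kb (chr17:67921095-67929147), and 6.79 and 3.89 kb of it were covered in mesothelium, against 0.759 kb in epithelium replicate 1 and none in replicate 2. The widest without any epithelium peak was 4.59 kb (chr17:67955493-67960082), of which 4.59 and 2.89 kb were covered in the mesothelium libraries. A 2.79 kb region (chr17:67948950-67951738) took in the internal RefSeq start at 67950940. All 300 bases of the promoter printed above for that start were covered in both mesothelium libraries and none in either epithelium library. A peak over any part of the promoter in both mesothelium libraries and in neither epithelium library was found at 2.75% of 21263 coding promoters. The outermost start at 68004108 was fully covered in both mesothelium libraries too, and there epithelium replicate 1 covered no base and replicate 2 covered 234.

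The 2 Arhgap28 promoters differed in sequence as well. The internal one had 45% G and C and 6 CG dinucleotides, against 62% and 26 for the outermost one, beside medians of 56.3% and 13 over all promoters. None of the 8 motifs searched was found in the internal one. The outermost one held 2 overlapping GC boxes on the plus strand of the printed sequence, a motif present in 46.2% of all promoters on either strand. It also held 5 copies of TGGGCGTG, letters picked after the sequence was seen, which 1 promoter of 21263, this one, holds that often.

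Fnbp1 had 4 mesothelium-only regions. The 2 inside the gene were 2.04 kb (chr2:31064514-31066555) and 1.78 kb (chr2:31131251-31133031) wide. The other 2, of 0.719 and 1.96 kb, lay inside Gpr107, 18.8 and 25.7 kb from the higher-coordinate end of Fnbp1. The Fnbp1 promoter printed above was covered over all 300 bases in mesothelium replicate 1, and no base was covered in mesothelium replicate 2 or either epithelium library. It held 5 GC boxes and 1 TGACAG, which 18.7% of all promoters hold. The promoter stretch of the listed start inside Fnbp1, at 31096500, had no peak in any library, nor did those of Ninl and Med13l. Within 1 kb of the Med13l start, however, mesothelium replicate 2 covered 0.51 kb.

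At Gypc the widest region was outside the gene. It spanned 4.00 kb (chr18:32505245-32509247), was covered over 4.00 and 3.61 kb in mesothelium and not in epithelium, and lay 19.1 kb from the lower-coordinate end of Gypc. It overlapped an annotated lncRNA, Gm44577, in which 1.04 and 0.903 kb were covered in mesothelium. The 2 regions inside Gypc were 2.08 and 2.84 kb wide, and the wider one also had a 0.372 kb peak in epithelium replicate 2. No other coding gene lay in the Gypc window.

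Lrrc69 had 4 mesothelium-only regions, each touching its body. The widest was 4.59 kb (chr4:14802307-14806894), covered over 4.59 and 3.33 kb in the mesothelium libraries, and it lay 1.48 kb inside the higher-coordinate end of Lrrc69. The nearest end of Otud6b, which encodes a deubiquitinase, was 2.61 kb from the same region, so position alone does not assign it to one of the 2 genes. The other 3 regions were 1.64 to 3.54 kb wide and spread through the gene.

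Ninl carried the widest mesothelium-only region of the 6 genes, 8.33 kb (chr2:150996686-151005012), covered over 6.53 and 6.25 kb in the mesothelium libraries. It began 4.39 kb from the listed start of Ninl and lay within the gene. The highest fold enrichment that the authors' peak caller gave there was 4.23 in mesothelium replicate 1 and 5.88 in replicate 2. Of the 4 regions in the Ninl window found in both mesothelium libraries, the 2 with an epithelium peak as well lay at the ends of Abhd12 and Nanp.

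Med13l had 3 regions found in both mesothelium libraries. The widest, 3.5 kb (chr5:118600363-118603861), had only 0.015 kb in common between the replicates. A 3.02 kb region (chr5:118513585-118516600) lay upstream of the gene, 43.7 kb from it, with 1.62 and 3.02 kb covered in the mesothelium libraries. No other coding gene lay in the Med13l window, and the next ones, Spring1 and Tbx3, were 297 and 905 kb away.

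**Figure D3:**
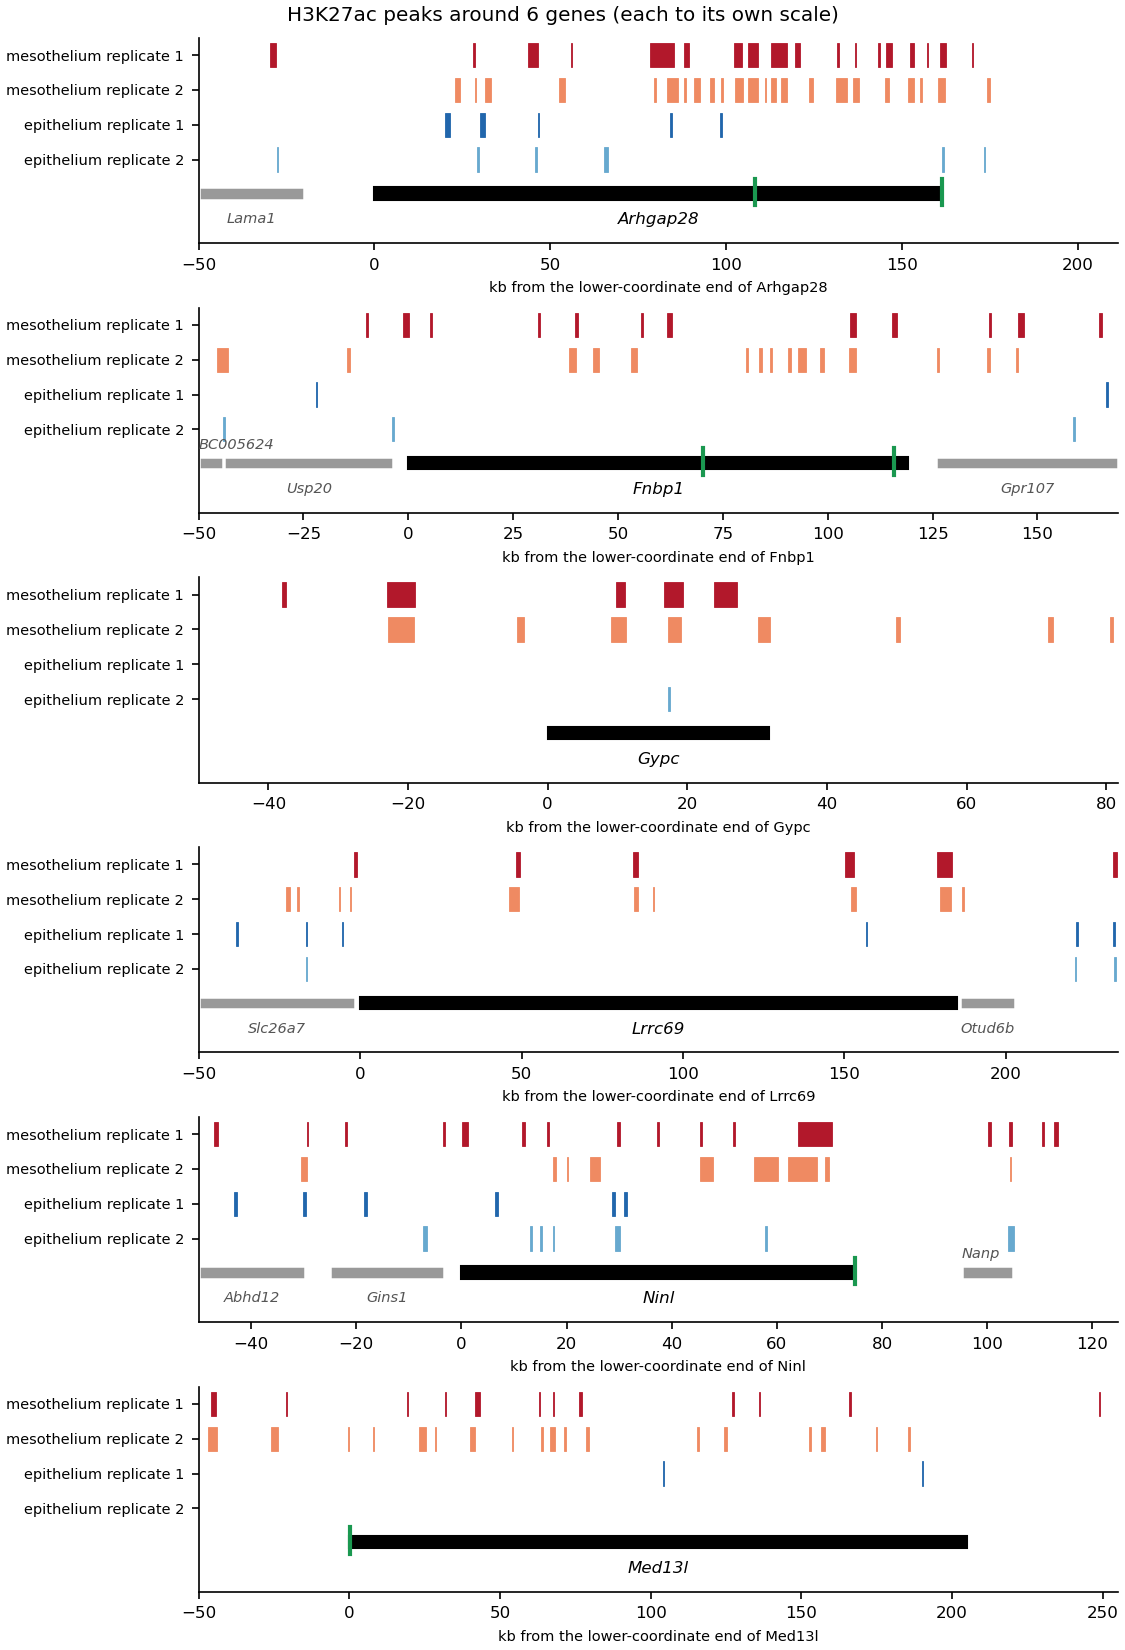
Peaks of the 4 libraries (rows, mesothelium above epithelium) along each gene's window, with the named gene in black, neighbouring genes in grey and listed starts as green ticks; the horizontal axis is distance in kb from the lower-coordinate end of the gene. Mesothelium peaks lie along the body of Arhgap28, densest toward its higher-coordinate end, while at Gypc the widest one lies outside the gene.

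Whether the neighbours shared the difference was asked of the acetylated length in each neighbour's domain, its body plus the intergenic bases nearest to it. This scale is log2(kb + 0.5), which understates the change of short domains. Over all 10486 domains tested with limma, 148 (1.41%) passed with the longer length in mesothelium and 265 (2.53%) with the longer in epithelium, which makes 3.94% in either direction. No domain was called in limma at the stricter limit of 2 on the −log10 q scale, when 519 had an unadjusted p under 0.05 in the mesothelium direction and 441 in the epithelium direction. Of 9 coding genes within 50 kb, 7 could be tested and 1 was called, Slc26a7. With simulated lengths, limma recovered 0.5% of log2 changes of 1 and 44% of changes of 2. A neighbour that was not called is thus not shown to be unchanged. Both mesothelium libraries exceeded both epithelium libraries at Slc26a7 and Gpr107, 2 of the 7, as at 22.4% of all domains tested. The median difference of the 7 was 0.33, against 0.03 over all domains tested. The neighbours' domains lie wholly or partly in the windows on which the named genes were picked. Their lengths, tests and median are thus not independent of that choice.

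Slc26a7, which encodes an anion transporter of the SLC26 family, lies 1.68 kb from Lrrc69 (chr4:14502430-14621946). Its domain held 4.86 and 13.8 kb in mesothelium against 1.81 and 0.717 kb in epithelium. The groups did not overlap, although mesothelium replicate 2 was far above replicate 1. The log2 difference was 2.44 ± 0.63 (SE, n = 2 each), with a limma Benjamini-Hochberg adjusted p of 0.0301. The call was lost without mesothelium replicate 2 (adjusted p = 0.252) and without epithelium replicate 2 (adjusted p = 0.145), and held in 6 of 13 alternatives, over which the adjusted p ran between 0.00413 and 0.364. Its 2 mesothelium-only regions, of 1.77 kb (chr4:14520529-14522298) and 2.65 kb (chr4:14557406-14560058), lay more than 50 kb from Lrrc69. Within 50 kb of Lrrc69, other gene bodies held 0.331 and 2.95 kb in mesothelium against 1.45 and 0.34 kb in epithelium, which overlap.

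Fnbp1 is flanked by Gpr107, which encodes a membrane protein of the Golgi, and by Usp20, which encodes a deubiquitinase. Gpr107 had 3.00 and 3.00 kb in mesothelium against 0.83 and 1.60 kb in epithelium, groups that did not overlap, but the log2 difference of 1.13 ± 0.68 (SE) did not pass the test (limma adjusted p = 0.401). The mesothelium-only regions of Gpr107 lay 18.8 and 25.7 kb from Fnbp1, inside the window on which Fnbp1 was picked. Usp20 had 0.489 and 1.59 kb against 0.448 and 1.01 kb. BC005624 had no peak and 1.55 kb in mesothelium against none in epithelium, too little to be tested.

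The neighbours of Ninl gave overlapping groups. Abhd12, a lipid hydrolase gene, had 2.5 and 5.55 kb in mesothelium against 5.27 and 3.94 kb in epithelium. Gins1, a gene of the GINS replication complex, had 0.77 kb and none against 0.559 and 0.89 kb. Nanp, a gene of sialic acid synthesis, had 2.12 and 0.314 kb against none and 1.10 kb. Lama1, which encodes the laminin alpha 1 chain and lies 20.1 kb from Arhgap28, had 2.08 kb and none in mesothelium against 0.833 and 2.83 kb in epithelium. Otud6b had at most 0.413 kb in any library and was not tested.

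Farther out, the next coding genes were L3mbtl4 beside Arhgap28, Spring1 and Tbx3 beside Med13l, and Gm35060 and Tslp beside Gypc. Of the 3 that could be tested, none passed (limma adjusted p = 0.293 for L3mbtl4, 0.526 for Spring1 and 0.83 for Tbx3), and none had an unadjusted p under 0.05. Tbx3, which encodes a T-box transcription factor, had 1.16 and 0.593 kb in mesothelium against 1.49 kb and none in epithelium.

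**Figure D4:**
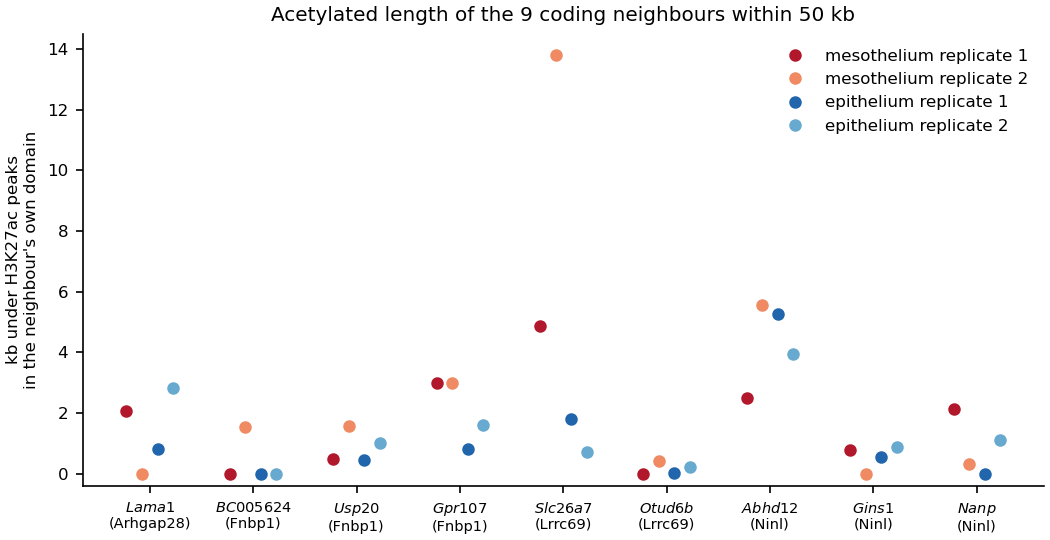
Acetylated length in kb (vertical axis) of the domains of the 9 coding genes within 50 kb of the 6 genes, 1 point per library, mesothelium left of epithelium. Slc26a7 reaches 13.8 kb in mesothelium replicate 2, and apart from Slc26a7 and Gpr107 the groups overlap.

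The span from 50 to 100 kb on each side was not used to pick the genes. There, both mesothelium libraries exceeded both epithelium libraries beside Lrrc69 and Fnbp1, 2 of 6 genes, against 16.9% of all genes. Beside Lrrc69, where it takes in the middle of Slc26a7, this span held 7.60 and 15.9 kb in mesothelium against 2.17 and 3.84 kb in epithelium. Beside Fnbp1 it held 1.48 and 2.63 kb against 0.321 and 1.17 kb. The groups overlapped beside Arhgap28, Gypc and Ninl. Beside Med13l it held no peak in mesothelium against 0.525 and 0.43 kb in epithelium. With 2 libraries against 2, an exact two-sided permutation test cannot give a p below 0.333.

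The domains most like each gene's over the 4 libraries were found by Euclidean distance on the log2(kb + 0.5) scale. Fnbp1 lay closest to Gpm6a, a mesothelium marker, with 6.67 and 13.0 kb in mesothelium and no peak in epithelium (distance 0.25). Col3a1, a collagen gene of the mesenchyme list, was almost as close to Fnbp1 (distance 0.279), with 9.05 and 12.3 kb against no peak, and Tbx5 came next (distance 0.751). Ninl lay closest to Sntb2 (distance 0.288), with 11.6 and 17.1 kb against 1.63 and 2.93 kb. Gypc lay closest to Tbx5 (distance 0.441), a T-box factor gene of the mesenchyme list, with 8.37 and 12.7 kb against none and 0.324 kb. The nearest domain to Arhgap28 was that of Fbn1 (distance 0.545), which encodes the matrix protein fibrillin 1, and the nearest to Lrrc69 was that of Gata5 (distance 0.66). The nearest to Med13l was that of Hoxa3 (distance 0.717). These genes were looked up by the pattern, so their likeness is a description.

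The relatives of the 6 genes did not move together in one direction. Of 30 tested genes of the ARHGAP family, 2 passed as longer in mesothelium and 2 as longer in epithelium (limma adjusted p under 0.05), beside 1.41% and 2.53% of all domains tested. The median log2 difference was -0.13, against 0.03 over all domains. At an unadjusted p under 0.05 the family had 11 genes in either direction, beside 859 domains in the mesothelium direction and 1003 in the epithelium direction of the 10486 tested. Arhgap29, which encodes another GTPase-activating protein, had 10.9 and 26.2 kb in mesothelium against 3.40 and 3.44 kb in epithelium (limma adjusted p = 0.0103, and 0.112 without mesothelium replicate 2). Arhgap32 was the other one longer in mesothelium, and its call was lost without mesothelium replicate 2 (limma adjusted p = 0.0659) or epithelium replicate 2 (0.302). Arhgap26 and Arhgap19 were longer in epithelium. Both lost the call without epithelium replicate 1 (limma adjusted p = 0.156 for Arhgap26 and 0.228 for Arhgap19) or replicate 2 (0.0818 and 0.121), and Arhgap19 also without mesothelium replicate 2 (0.197). Of 13 tested F-BAR genes, none passed in limma and 2 had an unadjusted p under 0.05, with a median of -0.24, and the smallest adjusted p, 0.0985, was that of Fchsd2.

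Of 16 tested genes of the membrane skeleton to which glycophorin C binds, none passed as longer in mesothelium and 2 passed as longer in epithelium, Epb41l1 (a protein 4.1 gene) and Ank3 (ankyrin G), beside 2.53% of all domains tested in that direction. In either direction 6 had an unadjusted p under 0.05, beside 859 domains in the mesothelium and 1003 in the epithelium direction of 10486 tested. The median was 0.28. Both calls held when any 1 library was left out. Epb41, the protein 4.1 gene of red cells, had 6.99 and 10.8 kb in mesothelium against 2.18 and 3.86 kb in epithelium and did not pass (limma adjusted p = 0.135). Hbb-bt, a beta globin gene, had no peak in either mesothelium library. Epb41 was chosen after its values were seen.

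Of 5 tested genes of the Mediator kinase module, 1 was called, Cdk8, its kinase, in the direction in which 2.53% of all domains passed. In either direction 3 had an unadjusted p under 0.05. Over all 10486 domains tested, 859 did so in the mesothelium direction and 1003 in the epithelium direction. That background holds for the other unadjusted counts here too. Cdk8 had 7.09 and 4.44 kb in mesothelium against 19.0 and 19.0 kb in epithelium (limma adjusted p = 0.0322), opposite in direction to Med13l. The call was lost without mesothelium replicate 2 (limma adjusted p = 0.0603), epithelium replicate 1 (0.121) or epithelium replicate 2 (0.169). Med13, the close relative of Med13l, had 7.92 and 21.0 kb in mesothelium against 6.63 and 3.15 kb in epithelium and did not pass (limma adjusted p = 0.118), and it was named after its values were seen. Of 17 other tested Mediator genes, none passed in limma, 2 had an unadjusted p under 0.05, and the median was -0.33, with the smallest adjusted p, 0.153, at Med4. Among 14 tested genes of the centrosome, none passed in limma as longer in mesothelium, 2 had an unadjusted p under 0.05 in either direction, and the median was 0.25. Among 32 tested genes named Lrrc, which share a repeat and no common pathway, 1 was longer in epithelium, Lrrc8d, a volume-regulated anion channel subunit, and none in mesothelium, with 2 at an unadjusted p under 0.05 and a median of 0.14. The Lrrc8d call was lost without epithelium replicate 1 (limma adjusted p = 0.121) or replicate 2 (0.0757).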

How the data were processed

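The files are 4 broad peak lists, 2 of mesothelium and 2 of epithelium. The submitters' processing notes name, among other tools, cutadapt 4.8, Bowtie2 2.5.3 and MACS2 2.2.9.1, and the mm10 build, with no parameters. The deposited peak lists give, per peak, the authors' integer score, a fold enrichment over background (a ratio) and −log10 of the p and q values. The score, the ratio and the −log10 values served to describe and filter peaks. The 2 IgG libraries of the series were not analysed here.

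Peaks outside the main chromosomes were left out (1 to 8 per list). Acetylated kb were summed over each coding gene's body plus 50 kb and over its domain, with RefSeq GRCm38.p6 gene bodies. Domains whose mean reached 0.5 kb were tested with limma 3.58.1 in R 4.3.3 on log2(kb + 0.5), median-centred, and p-values were Benjamini-Hochberg adjusted over all 10486. On simulated lengths, 0.5% of changes of 1, 44% of changes of 2 and 87.3% of changes of 3 on the log2 scale were recovered.

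The 6 genes and all gene lists were chosen with earlier results of these data known. Genes named beside them were the neighbours, the 3 most similar domains and the called members of each list, or else the member with the smallest adjusted p. Alternatives were stricter q values, an equal number of peaks per library, another pseudocount, scaling, reach and overlap, no filter, each library left out and a replicate block. Promoters were matched for 4 of the 6 genes (RefSeq). Tests were checked on simulated data. Some listed genes are not reported here.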

Additional observations from a re-analysis of the deposited data

How the results depend on the processing

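The genes were picked on their window lengths, which fixed the direction of the difference whenever 1 library was left out. The other settings re-use the same peaks, so the following count is a description and no support for the difference. Over the 6 genes and their alternatives, the mean mesothelium window was longer than the epithelium one in 52 of 54 cases and shorter in 0. The 2 exceptions were Fnbp1 and Med13l at a −log10 q of at least 4, where no peak was left, and at that limit at most 1 mesothelium library held a peak at each of the 6 genes. The difference ran between 0.0 and 30.0 kb, and widening the flank to 100 kb took Lrrc69 to 19.2 kb while narrowing it to 10 kb took Gypc to 6.84 kb.

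The 24 mesothelium-only regions became 9 at a −log10 q of at least 2, 0 at 4, and 14 when each mesothelium library had to cover 50% of a region. Leaving out 1 library gave 26 to 74, by construction: 62 and 74 without a mesothelium library, when 1 list suffices, and 26 and 27 without an epithelium library, when 1 fewer list must lack a peak. In domain fits that leave out 1 library, the lone library of a cell type is assumed to vary like the other cell type's.

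Domain calls by limma depended on the settings. With no filter on short domains, 201 of 16630 were longer in mesothelium and 341 in epithelium. With bodies plus 50 kb that could share bases, 202 of 16888 were longer in mesothelium and 384 in epithelium. With an equal number of peaks per library, 122 of 10020 were longer in mesothelium and 186 in epithelium. Domains longer in mesothelium numbered 148, against 0 at a −log10 q of at least 2 or 4 (519 and 15 at an unadjusted p under 0.05), 1 with 0.1 kb added, 93 when scaled to total length, 94 with quantile normalization, 94 with bodies plus 5 kb, and 110 to 173 with 1 library left out. Domains longer in epithelium numbered 265, against 0 at either q limit (441 and 8 unadjusted), 0 with 0.1 kb added (912 unadjusted), 114 by total length, 125 by quantile, and 80 to 470 with 1 library left out, 80 without epithelium replicate 2 and 470 without mesothelium replicate 1.

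Neighbour calls numbered 1 in the analysis reported and 0 in limma at either q limit (0 at an unadjusted p under 0.05), with 0.1 kb added, by total length and by quantile (1 each), and with bodies plus 5 kb (2). They numbered 2 when bodies plus 50 kb could share bases, and 0 to 1 with 1 library left out. The log2 difference of Slc26a7 was 1.66 (adjusted p = 0.364, −log10 q of at least 2), 2.80 (0.164, 0.1 kb added), 2.54 (0.0708, total length), 2.46 (0.074, quantile) and 2.27 (0.0773, bodies plus 5 kb) where limma no longer called it, and 1.83 to 3.10 with 1 library left out. Where the cause of a lost call is not the construction of the setting, the cause was not tested.

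With the replicate number as a block, limma called 209 domains longer in mesothelium and 348 in epithelium, 1 neighbour, and a Slc26a7 difference of 2.44 (adjusted p = 0.0163). The labels do not say that the numbers mark shared pools, and the deviations of same-numbered libraries had a correlation of 0.029 over 10486 domains, so the libraries were not treated as pairs. Depth limits all of this: weak acetylation that fell below the peak caller's limit is not in the lists.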
